A study of Mus musculus with 36 samples.

Results

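The axon guidance ligands and receptors described here are the protein-coding genes named as Eph receptors, ephrins, semaphorins of classes 3 to 7, plexins, neuropilins, Slits, Robos, netrins and Unc5 receptors. They were chosen by gene name alone, and 68 of the 31554 genes of the table fit the names: 5 ephrin-A, 3 ephrin-B, 9 EphA, 5 EphB, 20 semaphorin, 2 neuropilin, 9 plexin, 3 Slit, 4 Robo, 4 netrin and 4 Unc5 genes. RNA was sequenced from the nucleus accumbens (NAc, ventral striatum), the prefrontal cortex (PFC) and the periaqueductal grey (PAG, a midbrain centre of pain control) of adult male C57BL/6 mice. Each region had 6 libraries after sham surgery and 6 after spared nerve injury (SNI), a lasting injury of the sciatic nerve that serves as a model of neuropathic pain, all taken 2.5 months after surgery. No group carried a transgene or drug, each library was made from pooled RNA per the labels' protocols, and the labels tie no mouse to a library. P-values therefore measure the spread between libraries, which may be partly technical.

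Guidance cues steer growing axons during development, and many stay active in the adult brain, where they shape dendritic spines and synapses. Ephrins are bound to the membrane and act on Eph receptor tyrosine kinases of a neighbouring cell, with signals running into both cells. Semaphorins act through plexins, and the secreted class 3 members bind neuropilins as well. Slits repel axons through Robo receptors, while netrin 1 attracts through Dcc and repels through Unc5 receptors.

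The EphA receptor genes moved in both directions in PAG after SNI, and the 5 called ones differed in base composition over a conserved stretch of coding sequence. To show this, 20 homologous codons are printed for these 5, from exon 3 of the longest coding transcript on mm10. In this window 16 of the 20 encoded residues are the same in all 5 genes. Capitals mark a G or C at the last position of a codon. The first 3 genes were lower in PAG after SNI, at log2 differences of -0.31 for Epha6 (chr16:60425058-60425117, minus strand), -0.16 for Epha5 (chr5:84331565-84331624, minus strand) and -0.13 for Epha7 (chr4:28821266-28821325, plus strand). The other two were higher, by 0.36 for Epha10 (chr4:124885810-124885869, plus strand) and 0.64 for Epha8 (chr4:136945989-136946048, minus strand).
Epha6: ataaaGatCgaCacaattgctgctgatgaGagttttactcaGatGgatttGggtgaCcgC
Epha5: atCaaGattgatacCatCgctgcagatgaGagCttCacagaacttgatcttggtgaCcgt
Epha7: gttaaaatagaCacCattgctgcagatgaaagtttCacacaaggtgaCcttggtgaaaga
Epha10: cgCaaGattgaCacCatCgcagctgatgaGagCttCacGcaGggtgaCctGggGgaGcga
Epha8: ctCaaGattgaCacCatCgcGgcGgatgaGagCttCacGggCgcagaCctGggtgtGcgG
G or C filled the last position of 9, 8 and 4 of the 20 codons in Epha6, Epha5 and Epha7, against 14 in Epha10 and 16 in Epha8. The stretch was chosen after the differences had been seen and is a description of these 5 genes. It is the window of 20 residues with the most identical residues in an alignment of the called EphA genes, among windows without a gap. The Epha10 transcript used had only 292 codons, against at least 998 in the others. The search was thus limited to the part that aligns with Epha10. Epha3 and Epha4, tested but not called, were left out of it. They had a GC content of 41.9% and 45.6% and log2 differences of -0.12 and -0.05.

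Libraries held 27.6 to 64.9 M (mega) assigned reads, and levels are reads per kilobase of gene per M assigned reads (RPKM). Of the 68 members, 63 had a mean of at least 0.5 RPKM over the 36 libraries, the level required for a test between regions, and 62, 64 and 62 had it over the 12 libraries of NAc, PFC and PAG. Markers of medium spiny neurons, excitatory cortical neurons and midbrain neurons stood highest in the libraries labelled NAc, PFC and PAG: their summed levels were at least 1370.1, 773 and 224 RPKM there and at most 143, 294 and 50.1 elsewhere. Single libraries passed a score of 0.9, the mean log2 deviation from the region mean, for markers foreign to their region. They were NAc SNI 7 (cortical neurons), NAc sham 4 (fibroblasts), PFC SNI 24 (medium spiny neurons), and PAG sham 27 and PAG SNI 31 (choroid plexus and ependyma). Cortical markers spread widely over the NAc libraries, from 55.1 to 294 RPKM summed. NAc SNI 7 was the top of that spread, with NAc sham 6 next at 238. Libraries also differed in how their levels ran with the GC content of transcripts, here called the GC slope: the change of the log2 deviation from the region mean per 10 points of GC. In PAG it ran from -0.217 to -0.0246 in the sham libraries and from 0.0359 to 0.218 in the SNI libraries, with no overlap (difference 0.229, exact permutation p = 0.00216, two-sided, the smallest that 924 assignments allow). In NAc and PFC the surgeries overlapped (exact permutation p = 0.234 and 0.909).

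The regions were compared in the sham libraries, to see which guidance systems each region uses. Levels below are the median RPKM of the 6 libraries of a group with the lowest and highest in parentheses. Differences are on the log2(RPKM + 0.5) scale with their SE, and a member was called at an adjusted p under 0.05 where it also differed 2-fold or more. Against PFC, NAc had 3 of 63 members higher and 6 lower, beside 3.38% and 3.47% of the 15639 genes tested. Against PAG, NAc had 9 members higher and 7 lower, beside 6.59% and 6.42% of genes. PFC had 11 higher and 4 lower than PAG, beside 7.74% and 7.35% of genes. Taken over the 3 pairs, 24 of the 63 members were called, 12 of 32 ligands and 12 of 31 receptors. The share of all genes called in any of the 3 pairs was not computed. These counts, and those by family below, therefore stand without a background. With median-of-ratios scaling the members split 2 to 8, 11 to 5 and 13 to 3; that scaling moved the median of all genes between PFC and PAG from -0.09 to 0.03, and no named member changed direction under it or under quantile scaling. Fewer cells of a type and less RNA per cell cannot be told apart in such tissue libraries.

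Among the ephrins, Efnb3 and Efnb2, both transmembrane ligands, were the most abundant, and Efnb2 separated the regions most. Efnb2 stood at 32.7 (28.4 to 37.1) RPKM in NAc, 19.4 (17.7 to 20.9) in PFC, against 3.78 (3.68 to 4.11) in PAG. It was higher than in PAG by 2.93 ± 0.06 in NAc and 2.20 ± 0.06 in PFC, and no library of 1 region reached into the range of another. Efnb1 followed at a lower level, at 2.303 RPKM in NAc, 3.68 in PFC, against 0.837 in PAG, and was called higher in NAc (1.04 ± 0.15) and in PFC (1.51 ± 0.15) than in PAG. Efnb3 was high everywhere, at 57.98 (54.5 to 61.1) RPKM in NAc, 31.04 (21.1 to 42.4) in PFC, against 39.4 (38.02 to 41.3) in PAG, and no pair of regions passed the fold. It made up 89.4% of the summed ephrin-B level in PAG and 62.6% in NAc. The ephrin-A genes, whose products are held by a lipid anchor, were lower: Efna3 led with 9.37 ± 0.715, 12.02 ± 0.282 and 6.12 ± 0.352 RPKM (mean ± SD, n = 6) in NAc, PFC and PAG. None of the 4 ephrin-A genes tested passed the fold in any pair.

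The Eph receptors differed between regions by member, not by class. Epha4, a receptor for ephrins of both classes, led the EphA genes in NAc and PFC. It had 32.2 (30.5 to 38.6) RPKM in NAc, 36.98 (34.8 to 48.7) in PFC, against 12.1 (11.1 to 12.3) in PAG, higher than in PAG by 1.45 ± 0.07 and 1.67 ± 0.07. In PAG, Epha5 stood beside it at 12.1 (11.4 to 13.1) RPKM. Epha7 fell from 11.1 RPKM in NAc through 6.98 in PFC to 3.49 in PAG, a difference of 1.54 ± 0.08 between NAc and PAG. Epha8 was highest in NAc, at 4.25 (2.92 to 5.23) RPKM against 1.64 (0.839 to 2.22) in PFC and 1.198 (1.002 to 1.31) in PAG. Epha10, whose kinase domain is inactive, ran the other way, at 3.57 (2.34 to 5.45) RPKM in NAc, 7.99 (6.03 to 9.69) in PFC, against 7.903 (7.58 to 8.44) in PAG.

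Ephb6, the other kinase-dead Eph receptor, had the largest log2 difference of the members between PFC and PAG. It reached 55.5 (37.7 to 64.1) RPKM in PFC, against 11.2 (8.05 to 13.6) in NAc and 9.91 (7.73 to 11.1) in PAG, so that the lowest PFC library lay above the highest of the others. The difference was 2.40 ± 0.15 over PAG and -2.27 ± 0.15 for NAc against PFC, where Ntn1 had a larger one (2.48 ± 0.08). Ephb6 made up 79.1% of the summed EphB level in PFC. Ephb3 shared the pattern at a lower level, with 4.19 RPKM in PFC, 1.35 in NAc, against 1.298 in PAG. Ephb1 led in NAc and PAG, at 11.4 (10.7 to 13.1) and 13.7 (13.1 to 14.5) RPKM. Ephb2 was lower in NAc (0.659 (0.592 to 0.747)) than in PAG (2.04 (1.72 to 2.38)), by -1.12 ± 0.09.

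The semaphorins and plexins formed the largest group, and most of their members passed the 2-fold rule in no pair. In some pair 7 of 19 semaphorins tested and 2 of 9 plexins were called, and all 9 are named here. Some others lay just under the fold, such as Sema7a (-0.98 ± 0.13) and Sema4a (-0.93 ± 0.08) for NAc against PFC. Sema3a, the secreted repellent that acts through Nrp1, had 4.12 (3.71 to 5.02) RPKM in NAc and 3.36 (2.97 to 4.22) in PFC but 0.731 (0.586 to 0.909) in PAG. Its receptor component Nrp1 was flat, at 7.71, 8.15 and 9.16 RPKM. Sema3f, the ligand of Nrp2, was lowest in PFC at 1.96 (1.04 to 2.08) RPKM, against 4.03 (3.52 to 5.69) in NAc and 4.09 (3.61 to 4.74) in PAG, and its differences of 1.06 ± 0.16 and -1.03 ± 0.16 lay close to the 2-fold limit. Without PFC sham 13 both fell below it. Nrp2 itself had 7.56, 3.86 and 5.63 RPKM. It was not called, but its difference for NAc against PFC, 0.99 ± 0.09, lay just under the fold and had the direction of Sema3f.

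Several transmembrane semaphorins were highest in PAG. Sema6d had 21.3 (20.9 to 22.6) RPKM there, against 10.4 (9.21 to 12.5) in NAc and 7.68 (6.903 to 9.43) in PFC, and Sema5a had 13.2 (13.03 to 14.7) in PAG against 4.73 (3.54 to 6.23) in NAc. Sema4g and the secreted Sema3d were also higher in PAG than in NAc, by log2 differences of -1.07 ± 0.10 and -1.11 ± 0.10 for NAc against PAG. Sema6b ran against these, higher in PFC than in PAG by 1.26 ± 0.19. Sema7a, a lipid-anchored semaphorin that binds Plxnc1, was the top semaphorin in PFC at 32.7 (26.6 to 36.7) RPKM, and no pair of regions passed the fold. Of the plexins, Plxnd1, the receptor of Sema3e, was low in PAG at 1.32 (1.099 to 1.45) RPKM and stood at 10.8 (8.17 to 13.2) in NAc and 7.72 (5.69 to 9.81) in PFC. Its differences from PAG were 2.62 ± 0.13 and 2.17 ± 0.13. Sema3e differed far less, with 5.58, 4.71 and 4.23 RPKM in NAc, PFC and PAG. Plxna1 was lower in NAc (7.18 (6.05 to 8.42)) than in PFC (17.1 (12.5 to 19.99)), by -1.13 ± 0.12.

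**Figure D1:**
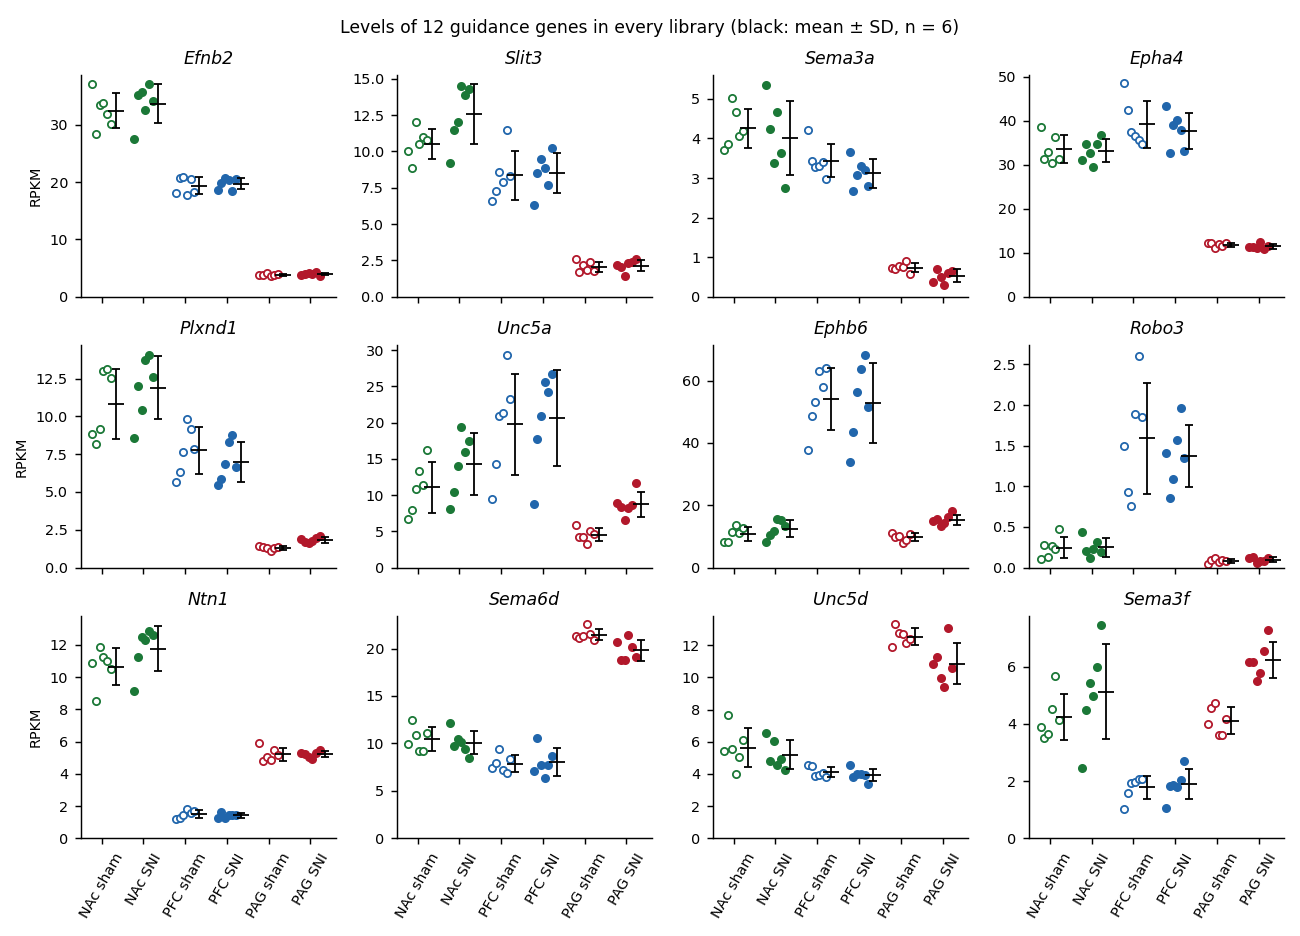
RPKM of 12 members in each of the 36 libraries (open circles sham, filled circles SNI; black bars, mean ± SD, n = 6). Efnb2, Slit3, Sema3a, Epha4 and Plxnd1 are low in PAG, Ephb6 and Robo3 are high in PFC, Ntn1 is highest in NAc, and Sema6d and Unc5d are highest in PAG.

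Slit1 and Slit3 were called between regions, in different pairs. Slit1 was lower in NAc, at 7.74 (4.82 to 9.16) RPKM, than in PFC, at 15.6 (12.4 to 19.1) (-1.12 ± 0.15), and had 14.2 (11.5 to 14.9) in PAG. Slit3 went the other way, with 10.6 (8.88 to 12.03) RPKM in NAc, 8.099 (6.57 to 11.5) in PFC, against 1.99 (1.71 to 2.57) in PAG, a difference of 2.11 ± 0.12 between NAc and PAG. Slit2 was not called in any pair. Of their receptors, Robo1 led in every region, at 17.6, 9.96 and 14.7 RPKM. Robo3, known from commissural axons, was a low transcript that stood out in PFC: 1.67 (0.7601 to 2.61) RPKM against 0.248 (0.111 to 0.473) in NAc and 0.0858 (0.0495 to 0.118) in PAG. Its PFC libraries varied widely, and its coefficient of variation within groups was the third largest of the members, 37.6%. Robo4, the endothelial Robo, did not differ between regions by the rule.

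Netrin 1 was called lower in PFC than in both other regions. Ntn1 had 10.9 (8.52 to 11.8) RPKM in NAc, 5.12 (4.81 to 5.898) in PAG and 1.52 (1.19 to 1.803) in PFC, with no overlap between any of the regions. It was 2.48 ± 0.08 higher in NAc than in PFC and -1.52 ± 0.08 in PFC against PAG, while NAc against PAG, at 0.96 ± 0.08, stayed under the 2-fold limit. Among the Unc5 receptors, Unc5a was highest in PFC, at 21.1 (9.53 to 29.4) RPKM, then NAc, at 11.1 (6.71 to 16.3), then PAG, at 4.44 (3.27 to 5.87); PFC and NAc overlapped, and both were called above PAG. Unc5d was highest in PAG, at 12.5 (11.9 to 13.3) RPKM against 5.48 (4.02 to 7.66) in NAc and 4.02 (3.82 to 4.53) in PFC. Dcc, the attractive netrin receptor, was higher in NAc than in PFC by 1.05 ± 0.10, the same direction as Ntn1.

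The regional calls recurred in the SNI libraries, which entered the same model but not the sham contrast. All 9 calls between NAc and PFC, 13 of 16 between NAc and PAG and 13 of 15 between PFC and PAG were made there again in the same direction. In the SNI libraries only, 4 members were called between NAc and PAG and 2 between PFC and PAG. Without the 5 libraries with foreign markers, NAc against PFC gave 4 higher and 6 lower, NAc against PAG 9 and 6, and PFC against PAG 11 and 3. The matching shares of all genes are not given, so these counts say nothing particular to the members.

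SNI was compared with sham in each region, to see whether guidance genes changed in the brain long after the injury. In PAG, 31 of 62 members were higher after SNI and 10 were lower at an adjusted p under 0.05, where 21.5% of all genes tested were higher and 13.7% were lower; 21 members were not called. The median over the 62 members was 0.19 on the log2 scale, and over all genes -0.02. The receptors Unc5a, Epha8 and Ephb6 and the semaphorins Sema6b and Sema3f rose most, and Epha6, Unc5d and Sema3d fell most. Most changes were small: at an unadjusted p under 0.05, 7 members reached a fold of 1.3 upward, beside 7.82% of genes, and none did so downward, beside 0.301%. Sham and SNI did not overlap in 17 members that rose, beside 13.3% of genes, and in 2 that fell, Robo2 and Epha5, beside 3.63%. The higher calls held between 26 and 32 when any 1 library was left out. The lower calls were fewer: 5 without PAG sham 26, 27 or 28, 4 without PAG sham 29 and 6 without PAG SNI 34. Without PAG sham 27 and PAG SNI 31, which carry choroid plexus and ependyma markers, 25 members were higher and 5 lower. For the fits with libraries left out the shares of all genes called are not given, so their counts stand without a background.

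Among the ligands of the Eph system, Efna2, Efna3 and Efnb1 rose and none fell. Efna3 went from 6.19 (5.53 to 6.496) to 7.01 (6.598 to 7.86) RPKM without overlap (0.21 ± 0.05). Efnb3 and Efnb2, the abundant ones, had 0.11 ± 0.05 and 0.04 ± 0.04 and were not called. Of the Eph receptors, 4 of 5 EphB and 2 of 7 EphA genes rose and 3 EphA genes fell. Ephb6 went from 9.91 (7.73 to 11.1) to 15.3 (13.3 to 18.01) RPKM, and every SNI library lay above every sham library (0.64 ± 0.08, adjusted p = 0.000121). Epha8 went from 1.198 (1.002 to 1.31) to 2.13 (1.65 to 2.67) RPKM, also without overlap (0.64 ± 0.08, adjusted p = 0.000116). Epha10, Ephb2, Ephb3 and Ephb4 rose by smaller amounts, from 0.23 to 0.36, with Epha10 at 7.903 (7.58 to 8.44) and then 10.2 (9.31 to 11.7) RPKM.

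The 3 EphA receptors that fell had smaller changes. Epha6 had 6.09 (5.33 to 6.71) RPKM after sham and 5.16 (3.33 to 5.82) after SNI (-0.31 ± 0.10, adjusted p = 0.0341), with overlap between the groups. Epha5 had 12.1 (11.4 to 13.1) and 10.9 (10.1 to 11.3) RPKM, without overlap (-0.16 ± 0.04, adjusted p = 0.00725). Epha7 had 3.49 (3.24 to 3.56) and 3.19 (2.87 to 3.33) RPKM (-0.13 ± 0.04). The calls of Epha6 and Epha7 were each lost in at least some fits that left out a single library, among them PAG sham 26, 27, 28 and 29. Epha4 and Epha3 had -0.05 ± 0.04 and -0.12 ± 0.06 and were not called.

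Of the semaphorins, 11 of 19 rose and 3 fell. Sema6b, a transmembrane ligand of A-class plexins, went from 8.53 (6.93 to 10.2) to 13.7 (11.9 to 17.7) RPKM, and the lowest SNI library lay above the highest sham library (0.69 ± 0.09, adjusted p = 0.000118). Sema3f went from 4.09 (3.61 to 4.74) to 6.17 (5.499 to 7.28) RPKM, without overlap (0.55 ± 0.07). All 6 class 4 genes rose, from 0.18 for Sema4d to 0.38 for Sema4b, which went from 2.51 (2.204 to 2.88) to 3.41 (3.22 to 3.91) RPKM. Sema3d fell, from 3.73 (3.53 to 4.13) to 3.199 (2.93 to 3.55) RPKM (-0.20 ± 0.05), as did Sema5a (-0.16 ± 0.06) and Sema6d (-0.11 ± 0.04). The close relatives Sema5b and Sema6c rose by 0.31 ± 0.06 and 0.27 ± 0.05, so classes 3, 5 and 6 held genes of both directions. Sema3a had 0.731 (0.586 to 0.909) and 0.561 (0.305 to 0.707) RPKM (-0.28 ± 0.10, adjusted p = 0.0521) and Sema7a 0.28 ± 0.11, both without a call.

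Of the plexins, which carry semaphorin signals into the cell, 6 of 9 rose and 1 fell. Plxna1 went from 10.2 (8.65 to 11.1) to 14.1 (10.6 to 16.2) RPKM (0.43 ± 0.09, adjusted p = 0.0022). All 3 B-class plexins rose, Plxnb1 by 0.36 ± 0.07, Plxnb2 by 0.37 ± 0.07 and Plxnb3 by 0.31 ± 0.08. B-class plexins are known as receptors of class 4 semaphorins. Plxnd1 and Plxna3 rose by 0.36 ± 0.06 and 0.23 ± 0.07. Plxnc1, the receptor of Sema7a, fell from 11.3 (10.2 to 11.7) to 9.84 (7.61 to 10.7) RPKM (-0.19 ± 0.07, adjusted p = 0.04496), with overlapping groups. Nrp1 and Nrp2 had -0.08 ± 0.05 and 0.01 ± 0.06 and were not called.

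Slits, Robos, netrins and Unc5 receptors also split. Slit1 and Robo4 rose by 0.31 ± 0.10 and 0.31 ± 0.10, while Slit2 and Robo2 fell. Robo2 went from 5.22 (5.09 to 5.84) to 4.65 (4.29 to 4.82) RPKM, without overlap (-0.18 ± 0.04, adjusted p = 0.00374). Robo1 had -0.00 ± 0.05 and Ntn1 0.00 ± 0.05, both level between the groups and without a call. Ntn3 rose by 0.21 ± 0.06. Unc5a had the largest rise of all 62 members, from 4.44 (3.27 to 5.87) to 8.48 (6.51 to 11.7) RPKM; the highest sham and the lowest SNI library did not meet (0.87 ± 0.13, adjusted p = 0.000219). Unc5b rose from 6.53 (6.38 to 7.17) to 9.05 (8.27 to 10.8) RPKM (0.46 ± 0.06, adjusted p = 0.000113). Unc5d fell from 12.5 (11.9 to 13.3) to 10.7 (9.39 to 13.1) RPKM (-0.21 ± 0.06), and Unc5c had -0.10 ± 0.04 without a call. The 4 receptors of this family thus held the largest rise of the members and 1 of the 10 falls.

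**Figure D2:**
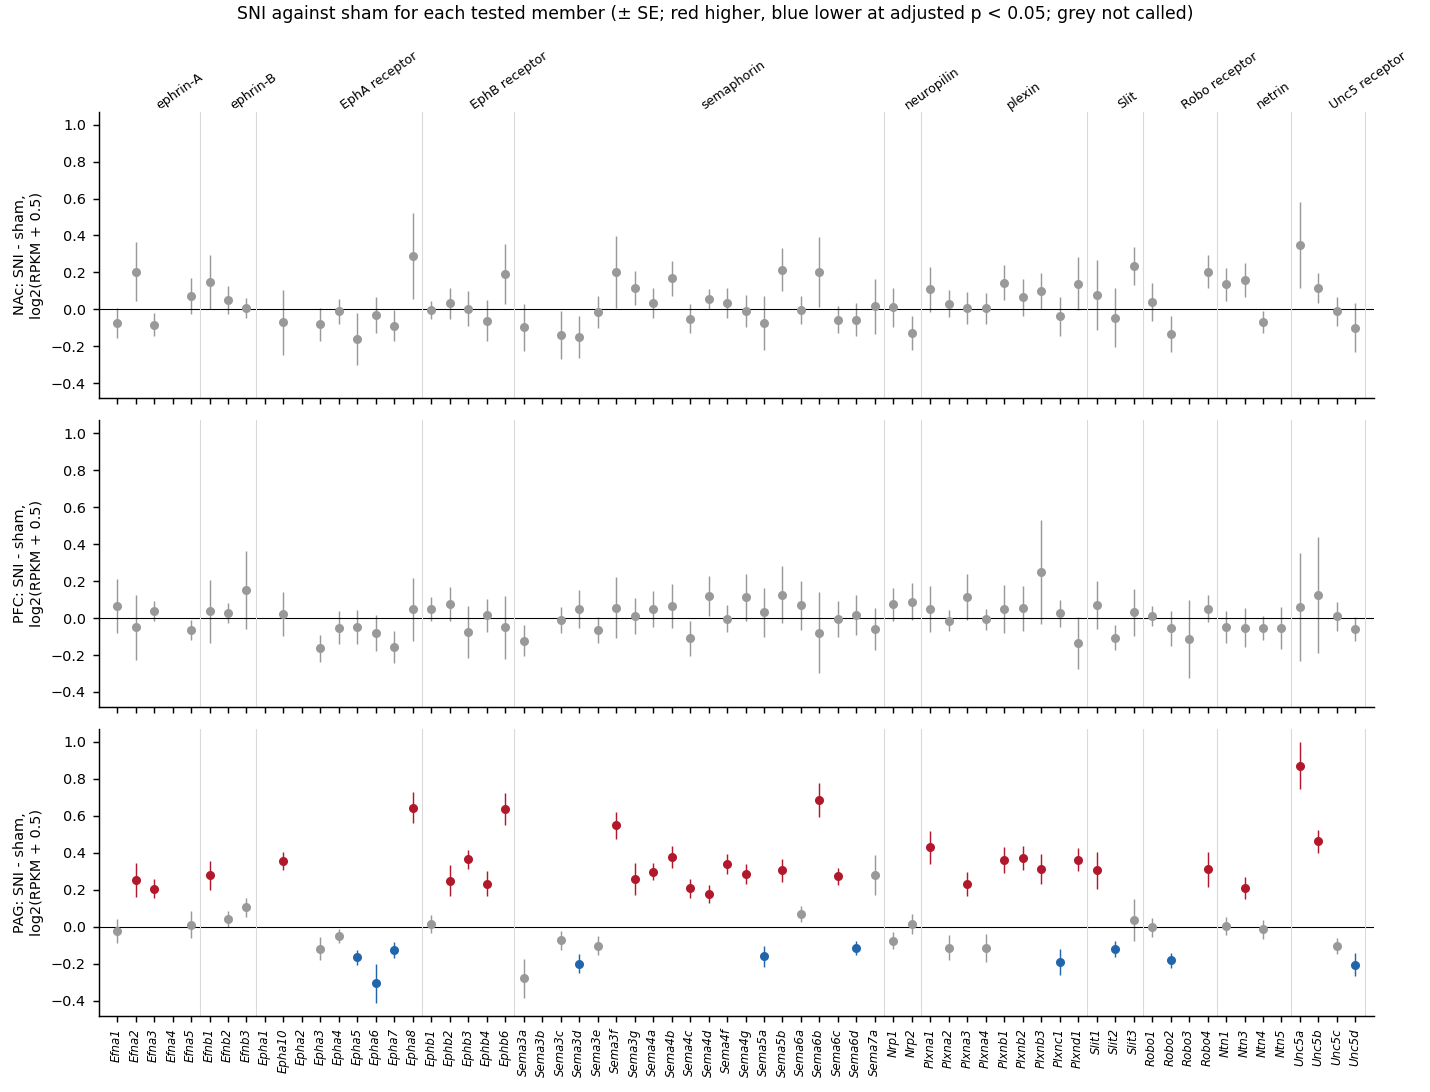
Log2 difference of SNI and sham with its SE for every tested member, by family, in NAc, PFC and PAG (red higher, blue lower at an adjusted p under 0.05, grey not called). All members are grey in NAc and PFC; in PAG 31 are red, led by Unc5a at 0.87, and 10 are blue.

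In NAc and PFC no member passed the test, beside 0% of all genes in both. In NAc the lowest adjusted p among the 62 members was 0.780, and 2 had an unadjusted p under 0.05, beside 4.32% of all genes: Robo4 (0.20 ± 0.09) and Slit3 (0.23 ± 0.10). Slit3 had 10.6 (8.88 to 12.03) RPKM after sham and 12.9 (9.22 to 14.5) after SNI in NAc, with overlap. In PFC all adjusted p-values of the 64 members rounded to 1, and 1 had an unadjusted p under 0.05, beside 1.45% of genes: Epha3, at -0.16 ± 0.07. Voom on the recovered reads also called 0 members in both regions. Unc5a had 0.35 ± 0.23 in NAc and 0.06 ± 0.29 in PFC, and Ephb6 0.19 ± 0.16 and -0.05 ± 0.17. The intervals of these differences are wide: the SE of Unc5a was 0.29 in PFC, against 0.13 in PAG.

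A call in PAG and none elsewhere does not show that the regions differ, so the difference of the SNI effects was tested itself. Against NAc, 0 of 63 members passed (lowest adjusted p 0.469, 11 at an unadjusted p under 0.05), and against PFC 0 of 63 (lowest adjusted p 0.212, 18 unadjusted), beside 0% of all genes in both tests. Between NAc and PFC the count was 0, with an unadjusted count of 0. Voom gave 0 in all 3 tests. Leaving out PFC sham 13, the library with the lowest GC slope in PFC (-0.262), gave 10 members with a higher SNI effect in PAG than in PFC. The share of all genes called in that fit is not given, so the 10 stand without a background. The difference for Unc5a was 0.52 ± 0.35 for PAG minus NAc and 0.81 ± 0.35 for PAG minus PFC.

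The direction of the PAG changes ran with the base composition of the transcripts. All 30 members that rose and have an annotated transcript had a GC content of 53.4% to 63.5%, and the 10 that fell had 39.2% to 49.3%. At the last codon position, G or C made up 60.1% to 84.8% of codons in the genes that rose (median 69.1%) and 46.0% to 62.4% in those that fell (median 50.8%). The members are rich in GC as a set, with a median of 55.3% among those tested, against 49.6% over all genes tested. Genes outside the group followed the same order: of all genes with 55% to 60% GC, 65.3% rose in PAG, and of those with at least 60%, 78.3%, while below 45% 31.2% fell. Within these classes 22 of 26 and 6 of 6 members rose, and 5 of 12 below 45% and 5 of 9 between 45% and 50% fell, where 17.8% of all genes did. The medians of members and all genes were 0.29 and 0.24 between 55% and 60% GC, 0.50 and 0.43 at 60% or more, and -0.12 and -0.11 below 45%. In NAc, where nothing was called, the medians climbed from -0.09 and -0.06 below 45% to 0.21 and 0.15 at 60% or more.

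**Figure D3:**
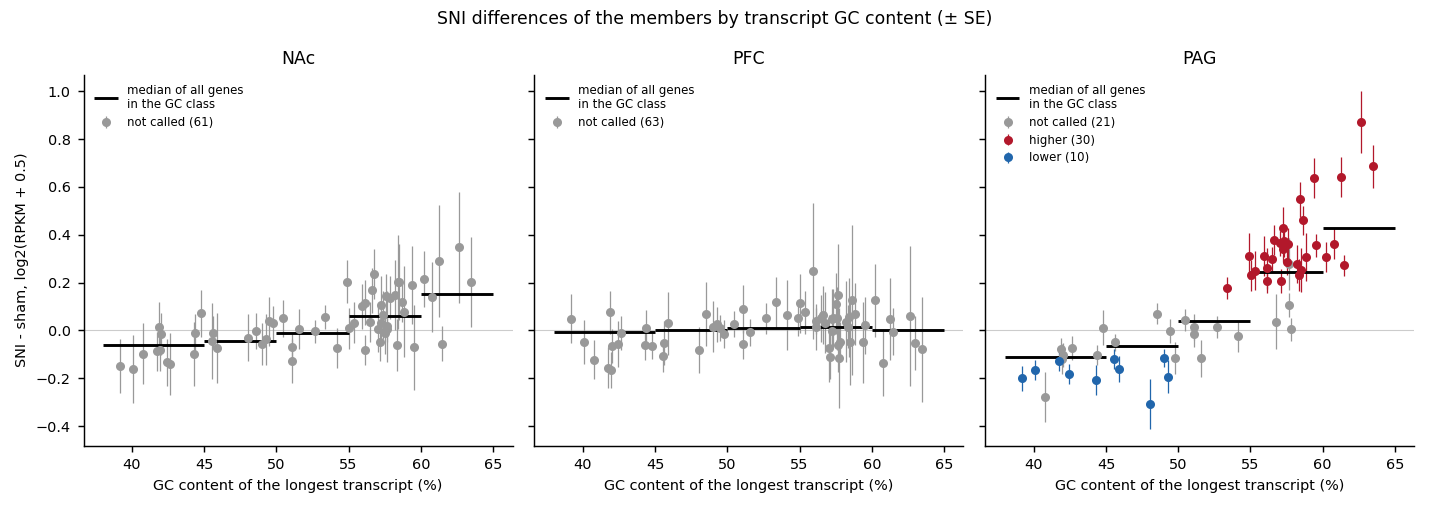
Log2 difference of SNI and sham with its SE against the GC content of the longest transcript, for each member with a value (red higher, blue lower, grey not called). Black lines are medians of all genes in GC classes; in PAG the members climb with these lines, from -0.11 below 45% GC to 0.43 at 60% or more, and in PFC both are flat.

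Members also moved with the GC slope of the libraries in the regions where none was called after SNI. In a fit of surgery and GC slope, 22 of 62 members rose with the slope in NAc and 1 fell, beside 16.9% and 11.6% of all genes, and 27 of 64 rose and 5 fell in PFC, beside 20.4% and 19.8%. The counts rest in part on extreme libraries: without NAc SNI 7, 12 rose in NAc, and without the 2 libraries farthest from the median 7 rose in NAc and 12 in PFC, with 0 falling. The members that fell numbered 4 in NAc without sham 1 or without sham 6, and 1 in PFC without sham 13. All 31 members that rose in PAG had a positive slope in both NAc and PFC, called for 20 and 25 of them. Of the 10 that fell, 10 and 9 had a negative slope, called for 1 and 3. Unc5a changed by 3.66 ± 0.32 log2 units per unit of GC slope in NAc and 3.80 ± 0.30 in PFC, and Sema6b by 3.02 ± 0.20 and 2.91 ± 0.19. The slope of a library is computed over all genes, these members included, and is itself a regression on GC content. Members rich in GC therefore lean to a positive slope by construction, so the shared sign is no separate evidence. The shares of all genes given beside the counts are not matched for GC.

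**Figure D4:**
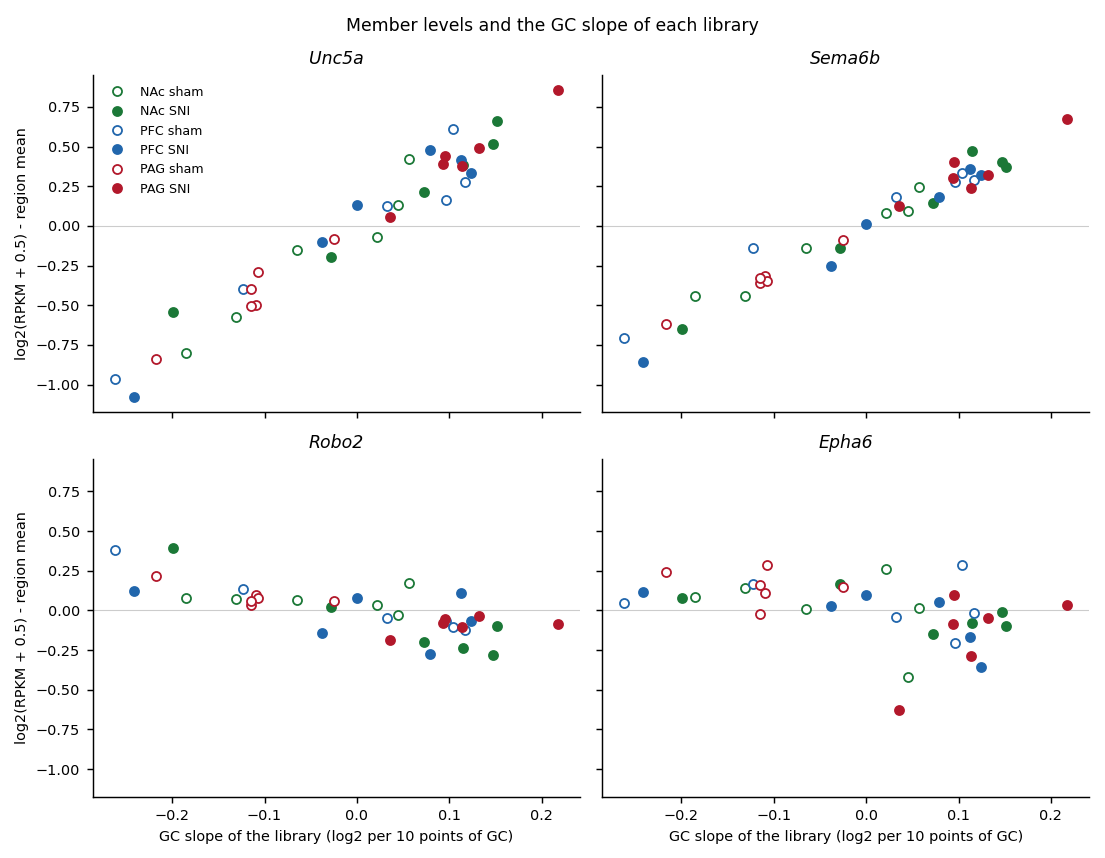
Deviation of log2(RPKM + 0.5) from the region mean against the GC slope of each of the 36 libraries (open circles sham, filled circles SNI; green NAc, blue PFC, red PAG). Unc5a and Sema6b climb along the slope in all 3 regions, Robo2 drifts down, and Epha6 scatters; the PAG sham and SNI libraries lie on either side of 0.

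Removing the GC pattern from the PAG comparison lowered the count of calls. After a loess trend on GC was taken out of each library, 6 of 62 members were higher and 2 lower, beside 7.79% and 5.25% of all genes, so the shares of members lay near those of all genes. The 6 were Unc5a (0.38), Ephb6 (0.27), Sema3f (0.23), Ntn3 (0.22), Sema6b (0.17) and Sema4b (0.15), and the 2 lower were Ntn1 (-0.29) and Sema6c (-0.17). Ntn3 has no annotated GC content and was corrected as a gene of median GC content, which moved it from 0.21 to 0.22. With coefficients on the GC slope estimated in NAc and PFC and applied gene by gene, 0 members were called (lowest adjusted p 0.0648), beside 0.109% of all genes higher and 0.0192% lower, and the median of the 31 that had risen went from 0.31 to 0.05. Under this setting Unc5a had 0.01, Sema6b 0.01 and Ephb6 0.12. With the slope as a covariate within PAG, 0 members were called as well (lowest adjusted p 0.512), beside 0% of all genes, in a design where the slope and the surgery do not overlap. What the surgery and the GC slope each contribute in PAG cannot be told apart within these 12 libraries.

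Markers of other cells moved in PAG too. Beside 21.5% of all genes higher and 13.7% lower, 6 of 10 astrocyte markers rose and 2 fell, and 5 of 11 for microglia, 4 of 12 for myelin, 4 of 9 for fibroblasts, 3 of 8 for excitatory cortical neurons and 3 of 12 for midbrain neurons rose with none falling. Of the endothelial markers 2 rose and 2 fell, of those for oligodendrocyte precursors 2 rose and 1 fell, and 1 each rose for medium spiny neurons and for choroid plexus and ependyma. The first 3 lists had summed levels of 869.6 to 967 RPKM after sham and 941 to 1020.5 after SNI for astrocytes, 133 to 144 and 140.0 to 171 for microglia, and 1381 to 1585 and 1448 to 1996 for myelin. With the myelin score as a covariate 26 members were higher and 3 lower, beside 19.2% and 9.35% of all genes. For the midbrain neuron list the summed levels were 334 to 419 RPKM after sham and 224 to 380 after SNI, lowest in PAG SNI 31. Of its 12 markers, 6 had a difference above 0. The part of the other cell types in the result was not tested.

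Other genes of the guidance pathways were read in the same comparison. Of 27 co-receptors and other cues tested in PAG, 9 rose and 7 fell, with a median of -0.04, beside the 21.5% and 13.7% of all genes and their median of -0.02. Those that rose most were Gpc1, a heparan sulfate proteoglycan (0.53 ± 0.07), Rgma, a ligand of neogenin (0.42 ± 0.06), Dscaml1 (0.37 ± 0.10) and Cntn2, an axonal adhesion protein (0.32 ± 0.05). Of 59 genes of intracellular guidance signalling, 17 rose and 10 fell, with a median of -0.01. Neither list was tested against all genes. Those that rose included the kinase Fes (0.46 ± 0.09), Dpysl4, of the collapsin response mediator family (0.45 ± 0.06) and Mical3 (0.36 ± 0.08). Neither list had a member called in NAc or PFC. Between regions, 6 of 58 signalling genes were higher and 3 lower in NAc than in PAG, beside 6.59% and 6.42% of all genes. In PFC 10 were higher and 3 lower than in PAG, beside 7.74% and 7.35%, while most were not called. Ngef, the exchange factor that works with Epha4, was higher than in PAG by 2.69 ± 0.07 in NAc and 2.09 ± 0.07 in PFC, and Sipa1l1 by 2.42 ± 0.06 and 2.10 ± 0.06. Ntng1, a membrane-bound netrin, was lower than in PAG by -1.83 ± 0.11 and -1.61 ± 0.11.

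Within PFC and NAc, some members followed marker scores of the libraries in fits that also held the surgery. The myelin score, the mean log2 deviation of 12 oligodendrocyte genes, spread widely over the PFC libraries (summed levels of 272 to 1308 RPKM), and in a fit of surgery and score 6 of 64 members rose with it and 0 fell, beside 2.07% and 0.079% of genes. They were Unc5b (0.79 ± 0.06 log2 units per unit of score, adjusted p = 1.11e-05), the plexin Plxnb3 (0.70 ± 0.07), Efnb3 (0.49 ± 0.07), Sema6a (0.31 ± 0.04), Sema6d (0.24 ± 0.04) and Sema4d (0.24 ± 0.04). Plxnb3 and Sema4d are known from oligodendrocytes. Over the 12 PFC libraries Unc5b ran from 1.77 to 7.28 RPKM and Plxnb3 from 2.19 to 8.25. Without PFC SNI 20 and 24, the libraries farthest from the median score, 3 members passed: Unc5b, Plxnb3 and Sema6a.

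In NAc the score of excitatory cortical markers varied in the same way. Slit2 (0.34 ± 0.05 per unit of score), Slit1 (0.39 ± 0.07), Sema5a (0.28 ± 0.06) and Epha10 (0.33 ± 0.08) rose with it, and Robo1 (-0.21 ± 0.03) and Epha4 (-0.13 ± 0.03) fell: 4 and 2 of 62 members, beside 3.88% and 1.47% of genes. Slit1 and Epha10 were also higher in PFC than in NAc in the sham comparison, whereas Epha4 had -0.22 for NAc against PFC. The 4 became 2 without NAc SNI 7 or without NAc SNI 12. Without NAc SNI 12 and NAc sham 5, the farthest from the median score, Slit1, Slit2, Epha10 and Robo1 passed. The scores and the member levels come from the same libraries.

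**Figure D5:**
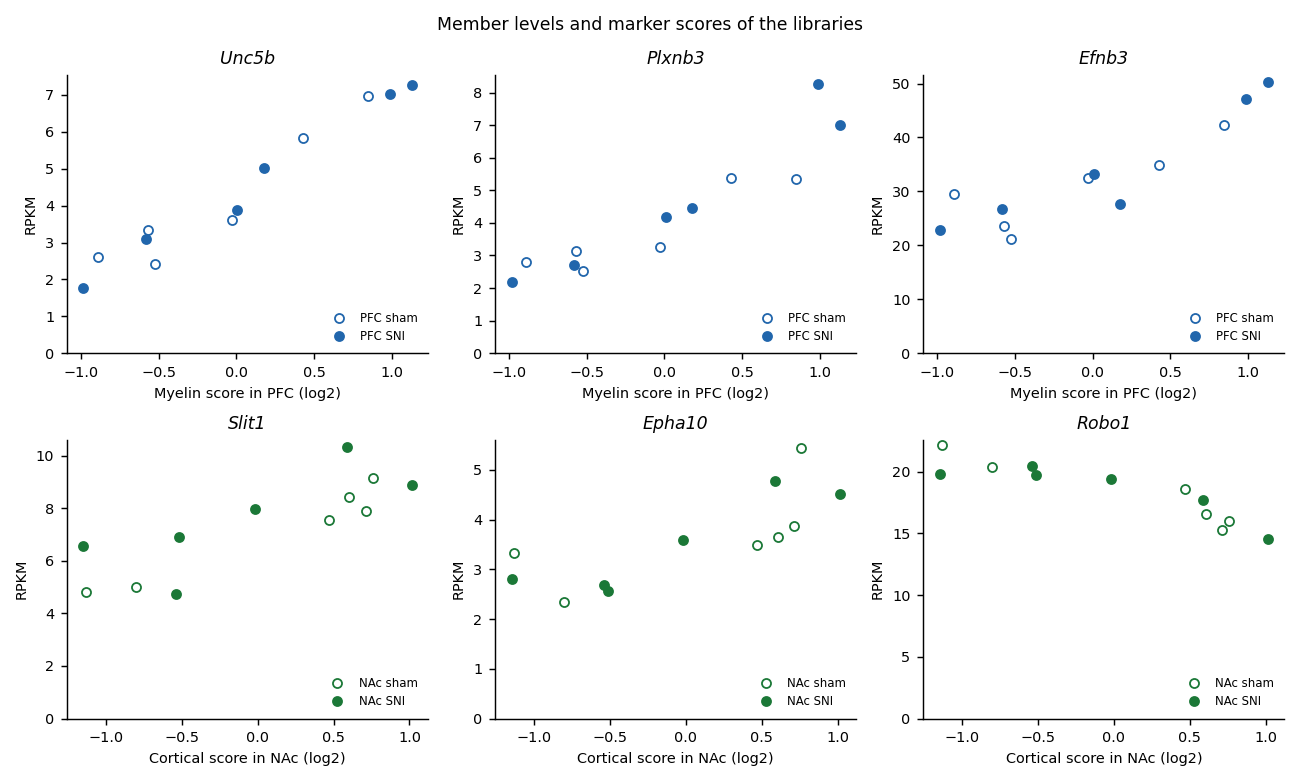
RPKM of Unc5b, Plxnb3 and Efnb3 against the myelin score of the 12 PFC libraries, and of Slit1, Epha10 and Robo1 against the cortical score of the 12 NAc libraries (open circles sham, filled circles SNI). Sham and SNI libraries lie along the same course; Robo1 falls where Slit1 and Epha10 rise.

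The 5 members below the level for a test between regions were Epha1, Epha2, Efna4, Sema3b and Ntn5. Ntn5 passed in PFC alone, at 0.879 (0.529 to 1.15) RPKM after sham and 0.7897 (0.593 to 1.02) after SNI there, against at most 0.1504 in any NAc or PAG library. Efna4 stood at 0.0324 to 0.188 RPKM in the NAc sham libraries and had the largest coefficient of variation within groups, 56.1%, followed by Ntn5 with 52.2%. The steadiest members were Ephb1, Efna3 and Efnb2, with 6.41%, 6.62% and 7.04%.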

How the data were processed

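The 36 libraries share 1 table that the authors deposited in RPKM, with gene lengths. TopHat2, HTSeq and mm10 are named in the submitters' processing notes, with versions, settings and counting strand not given in the sources used here, so overlapping and antisense genes are uncertain. Whole reads came back from 100% of these values when length and depth were multiplied in (tolerance 0.001); at the lowest depth a single read over 1 kb made 0.0362 RPKM. GC content and positions came from GENCODE M21 (mm10), which held 97.9% of the gene identifiers and 67 of 68 members (not Ntn3).

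Differences were fitted in R 4.3.3 by limma 3.58.1 with a mean-variance trend on log2(RPKM + 0.5), which understates changes of low genes, where the mean over the libraries fitted was 0.5 RPKM or more. Two-sided p-values were adjusted by Benjamini-Hochberg over all genes. SNI comparisons used the 12 libraries of a region; region contrasts and differences of SNI effects used 1 model of 36. Scripts were tested on simulated data. Members of every family may be named; values in full were given for the largest called differences of each comparison (6 per direction between regions, 8 for SNI), otherwise for the 3 of smallest p, for the top member of a family and for the 3 highest and 3 lowest coefficients of variation. The fits on marker scores and GC slopes within NAc and PFC, and those without libraries with foreign markers (score above 0.9), were added after the data were seen. Members, lists and tests were chosen with earlier results of these data known. Groups were mapped by the labels, and no library was left out of the values reported as such.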

Additional observations from a re-analysis of the deposited data

Results flagged for a closer look

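Over 258 groups of 6 libraries (43 named members in 6 groups), 8 held a library whose gap to the nearest other exceeded Dixon's 95% limit for 6 libraries; chance alone gives about 1 in 20 such groups. Library 28, of PAG sham, held 3 of them, all high: Robo2 at 5.84 RPKM against 5.09 to 5.33 in the other libraries, Sema5a at 14.7 against 13.03 to 13.4, and Sema6d at 22.6 against 20.9 to 21.5. These are members that fell in PAG after SNI, and library 28 had the lowest GC slope of the region, -0.217. PFC sham 13, which had the lowest slope in PFC, -0.262, was low in Robo4 at 1.03 RPKM against 1.38 to 1.55, and high in Sema3a at 4.22 against 2.97 to 3.43. NAc SNI 7, with both the highest cortical score and the lowest GC slope of its region (-0.200), was high in Epha5 at 13.9 RPKM against 6.91 to 9.03. NAc SNI 12, with the lowest cortical score, was high in Plxna2 at 21.2 RPKM against 17.1 to 18.5. PFC SNI 24, the library with medium spiny markers, was low in Epha7 at 5.52 RPKM against 6.25 to 6.68. The part of these library features in the values was not tested.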

How the results depend on the processing

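Of 614 recomputed counts of members, 574 stayed within 1.5 times the reported one. Counts of 0 that stayed 0, as for SNI in NAc and PFC, are among the 574, so it says less about counts above 0. No paired analysis was possible because the groups share no replicate numbers. In PAG the members higher and lower after SNI were 31 and 10; they were 6 and 2 with the GC loess, 0 and 0 with the GC slope as a covariate, 0 and 0 with coefficients of the other regions, 19 and 1 in 1 model of 36 libraries, 27 and 5 with no filter and 26 and 3 with the myelin covariate, and voom on recovered reads gave 32 and 12. Leaving out single libraries gave 26 to 32 higher and 4 to 9 lower, and leaving out those with foreign markers 25 and 5. Shares of all genes are given above for the main fits, the GC settings and the myelin covariate. Other recomputed counts in this section stand without a background. Fitting fewer or more libraries changes the residual spread; otherwise the cause was not tested. NAc against PFC had 3 higher and 6 lower, which became 1 and 5 with a pseudocount of 1, 10 and 14 with a fold of 1.5, and 2 to 5 and 5 to 7 without single libraries. NAc against PAG had 9 and 7, which became 8 and 3 with a pseudocount of 1 and 13 and 11 with a fold of 1.5. PFC against PAG had 11 and 4, and 16 and 12 with a fold of 1.5. SNI effects of PAG minus PFC ranged from 0 to 10 members higher without single libraries. With the GC slope as a second covariate, 7 members in NAc rose and 4 fell with the cortical score, and 1 in PFC fell with the myelin score. Without the 2 farthest libraries 1 fell with the cortical score and 3 rose with the myelin score, and with the GC slope 7 rose and 0 fell in NAc and 12 rose and 0 fell in PFC. Without single libraries the cortical score gave 2 to 6 rising, and the GC slope 12 to 23 rising and 0 to 4 falling in NAc and 1 to 7 falling in PFC. Of 1472 recomputed differences of named members, 1351 kept direction and side of the threshold, 115 lost the call and 6 changed direction: Plxna3 in PFC with array weights (-0.0152), and in PAG Unc5a (-0.0595) and Plxna1 (-0.0946) with the GC slope covariate, and Robo2 (0.0441), Epha5 (0.0488) and Epha7 (0.0395) with coefficients of the other regions. With 27.6 M reads in the shallowest library, Efna4 reached 0 reads in PFC and Ntn5 in NAc and PAG, where a difference between sham and SNI was not tested.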
